A study of Homo sapiens with 26 samples.

Results

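Compounds 41 and 76, a pair of small molecules described as HIF-2a inhibitors, were compared directly in 786-O cells through the 3 arrays titled with each number, which are 6 of the 26 arrays of the study. All 54613 probe sets that were not controls were considered, and the 35013 kept after a filter on dim signal stood for 15124 genes. 786-O is an established line of clear cell renal carcinoma without working VHL. The study measured its total RNA on Affymetrix U133 Plus 2.0 arrays, with 3 arrays each for compounds 41, 76, 40 and 77, vehicle (DMSO), cells titled Blk, and the groups WT8 and PRC3, and 1 array each for pTR and pTV. Blk was read as untreated, and the 4 numbers as the compounds, by elimination from the series text. The labels give no dose and no treatment time, and both compounds are known here only by their numbers, so neither a matched dose nor a structural difference can be stated. The labels do not state whether replicate arrays are separate cultures, so p-values here reflect array-to-array spread that may be only technical.

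VHL is the part of a ubiquitin ligase that marks the alpha subunits of the hypoxia-inducible factors for degradation when oxygen is present. Without it HIF-2a, the product of EPAS1, accumulates and drives genes of angiogenesis, glucose use and growth such as VEGFA, SLC2A1 and CCND1. The HIF-2a mRNA carries an iron-responsive element through which iron regulatory proteins hold back its translation. NRF2 and HSF1, which induce antioxidant enzymes and chaperones, are the textbook responders to reactive chemicals and to unfolded protein. Their targets were listed beside those of HIF-2a, and all lists were chosen with earlier results of these data known.

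The 6 arrays were close to each other. The root mean square difference between a compound 41 array and a compound 76 array was 0.413 to 0.497 on the log2 scale, against 0.420 to 0.454 among the compound 41 arrays and 0.398 to 0.481 among the compound 76 arrays. Either compound lay further from DMSO, at 0.473 to 0.586 for compound 41 and 0.472 to 0.590 for compound 76. Mean deposited signal was equal on these arrays, and 3 prime over 5 prime signal ratios ran from 0.977 to 1.15 for ACTB and from 0.960 to 0.992 for GAPDH on the 6 arrays. Of 11 renal markers with a probe set, 9 were above the floor of 20 on all 6 arrays and EMX2 was at the floor on all of them. Their summed signal was 13357 to 15520.0 with compound 41, 13624 to 15606 with compound 76 and 16857 to 20319 with DMSO. Some listed markers of endothelium (VWF, EMCN and ESAM), leukocytes (PTPRC, CD3E, CD14 and LYZ) and fibroblasts (COL3A1 and PDGFRB) were at the floor on all 6 arrays. Other members of these lists were above it on all 6: 2 of 9 with a probe set for endothelium (PECAM1 and TEK), 1 of 10 for leukocytes (CD79A) and 3 of 8 for fibroblasts (COL1A1, COL1A2 and ACTA2). The summed fibroblast list was 363 to 469 with compound 41, 339 to 408 with compound 76 and 385 to 428 with DMSO, and the part of such cells in the differences was not tested.

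Few genes separated the compounds. In a limma model of the 24 replicated arrays, 39 of 35013 probe sets (0.111%) passed an adjusted p of 0.05, 24 higher (0.0685%) and 15 lower (0.0428%) with compound 41. They included the representative probe sets of 23 genes (0.152% of genes), 14 higher (0.0926%) and 9 lower (0.0595%). The 3 arrays with compound 41 did not overlap the 3 with compound 76 for any of the 23, and 13.4% of all genes had no overlap. Lack of overlap was also a condition for naming a gene by rule, so for those genes it is descriptive and adds no support. With the replicate number as a block, 75 probe sets (0.214%) and 44 genes (0.291%) passed, and all 39 probe sets were among the 75. A fit of the 6 arrays alone called 0 probe sets with 2709 at an unadjusted p below 0.05, so the calls rest on the spread estimated from all 24 arrays. In the 24-array model 1927 probe sets (5.5%) had an unadjusted p below 0.05.

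**Figure D1:**
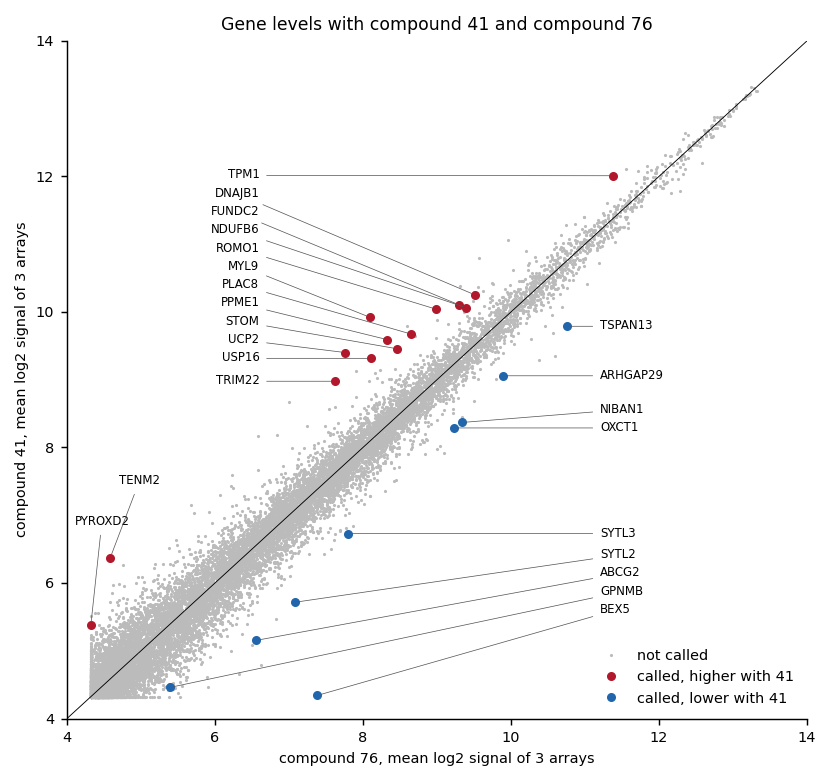
Mean log2 signal of each of 15124 genes over the 3 arrays with compound 41 (vertical axis) against the 3 arrays with compound 76 (horizontal axis), with the line of equal level. The 14 genes higher with compound 41 (red) and the 9 lower (blue) are named, and the other genes are grey.

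The number of arrays limits what this says of the genes that did not pass. The 95% interval of the difference had a median half-width of 0.49 on the log2 scale, or 1.40-fold, and lay wholly within 1 log2 unit of 0 for 12701 genes (84%). Among the 6159 genes in the brighter part of the range, with a mean signal no lower than the 70th percentile, the median half-width was 0.37 and 5824 intervals (94.6%) lay within 1 log2 unit.

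Of 15 heat shock genes measured 1, DNAJB1, was higher with compound 41 than with compound 76 (limma adjusted p below 0.05, against 0.0926% of all genes). So were 3 probe sets shared by HSP70 paralogs. In RNA of whole cultures, fewer cells expressing a gene and less RNA per cell cannot be told apart. DNAJB1, the HSP40 co-chaperone that stimulates the ATPase of HSP70, had signals of 1678, 990.1 and 1087 with compound 41, against 684, 787 and 724 with compound 76 and 720.4, 675 and 698 with DMSO, in the order of replicates 1, 2 and 3. It was 1.67-fold higher with compound 41 than with compound 76 (log2 difference 0.74, SE 0.14, limma adjusted p = 0.0356), with no overlap and with replicate 1 the highest of the 3. Another 3 called probe sets each list more than 1 paralog of the HSP70 family, so no single gene is named for them. Probe set 200800_s_at had 1395, 1132 and 991 with compound 41, against 250.3, 330.4 and 324 with compound 76 and 244, 274 and 254 with DMSO, a difference of 3.88-fold (log2 1.96, SE 0.24, adjusted p = 0.000181). Probe set 202581_at was 3.17-fold higher (adjusted p = 0.00121) and 200799_at was 3.11-fold higher (adjusted p = 0.00872) with compound 41. All 3 stood above every array with compound 76, 40 or 77, DMSO or Blk. For 200800_s_at those 15 arrays ran from 179.9 to 330.4.

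The heat shock list held 15 measured genes. Between the compounds DNAJB1 passed as higher with compound 41 and 0 passed as lower. The list's median log2 difference was 0.26 where that of all genes was 0. Unadjusted p was below 0.05 for 4 members higher and 1 lower with compound 41, or 33.3% of the list against 6.31% of all genes. Against DMSO 4 of the 15 rose with compound 41 and 2 with compound 76, where 1.71% and 1.02% of all genes rose. With either compound 0 fell. DNAJB4 rose with both, by 1.64 and 1.27 on the log2 scale (limma adjusted p = 5.74e-06 and 0.000235). HSPA4 did too, by 0.57 and 0.51 (0.0112 and 0.0341). Both comparisons use the same DMSO arrays. HSPA4L, an HSP110-family chaperone, averaged 431 ± 46.9 with compound 41 and 245 ± 57.8 with compound 76 (SD, n = 3 each), with an adjusted p of 0.0894, and passed in the block fit (limma adjusted p = 0.00894). HSPH1 and HSPE1, a nucleotide exchange factor of HSP70 and the HSP10 co-chaperonin, had log2 differences of 0.49 and 0.43 that did not pass. CRYAB, a small heat shock protein, had -0.72 (limma adjusted p = 0.667) and was the 1 member lower at an unadjusted p below 0.05. It was at the floor of 20 on all arrays with compound 41 and averaged 33.7 ± 8.2 with compound 76 (SD), so its difference is limited by the floor. The ATP-dependent chaperones HSP90AA1 and HSP90AB1 had 0.29 and 0.09. The DNAJB1 call was lost under 8 of 10 other settings (limma adjusted p = 0.0502 to 0.237), median scaling and signals as deposited among them, and kept with a floor of 50 and with the block. It was also lost without compound 41 replicate 1 (adjusted p = 0.245) and without compound 76 replicate 1 (0.209), replicate 2 (0.0723) or replicate 3 (0.15), whereas 200800_s_at and 202581_at passed without any 1 of the 6 arrays. Probe set 200799_at was lost without replicate 1 of compound 41 (0.105) or of compound 76 (0.121).

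HSF1 binds inverted repeats of GAA, written here as GAANNTTC or TTCNNGAA. A pair of sites in 1 start window of DNAJB1 and a site of HSPA4L are shown. These are the 2 heat shock genes that passed between the compounds, DNAJB1 in both fits and HSPA4L with the block. They come from RefSeq start windows of GRCh38.p14, which run from 250 bases before to 50 after each start, and capitals mark the repeat.
DNAJB1, chr19:14518458-14518483, minus strand, repeat 77 bases before the start: ggcggggcgGAAGGTTCtggaggggg
DNAJB1, chr19:14518428-14518453, minus strand, repeat 47 bases before the start: cgggctctgGAAGCTTCcgccggacg
HSPA4L, chr4:127782143-127782168, plus strand, repeat 170 bases before the start: tccagatctTTCTCGAAcccgcagct
A repeat of either form stood in a window of 10 of 14 matched heat shock genes (71.4%; CRYAB was not matched) and of 4417 of 27305 genes with a window (16.2%). DNAJB1 had 3 windows, of which 2 held it. A match of letters is a description and not a bound site, and members without a called difference held the repeat too, such as HSP90AA1 and DNAJA1. A longer form, with 3 units, stood in a window of 6 of the 14 heat shock genes (42.9%) and of 166 of the 27305 genes (0.608%). DNAJB1 and HSPA4L had this longer form in no window. Members that had it, such as HSP90AA1 and DNAJA1, had no called difference. The list was drawn up as targets of HSF1, so its higher shares of both forms describe the list and not the compounds.

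Genes of the actin cytoskeleton were the next group, put together by known role after their values were seen, as are the groups that follow. MYL9, the regulatory light chain of myosin II, had 853, 952 and 1122 with compound 41, against 213, 316 and 299 with compound 76 and 194, 228 and 349 with DMSO. It was 3.56-fold higher with compound 41 (log2 1.83, SE 0.23, limma adjusted p = 0.000186), the largest rise among the genes named by rule, and the arrays did not overlap. Its signal with compound 77 was 432, 720.2 and 714, between the 2 groups. TPM1, a tropomyosin that coats actin filaments, behaved differently: it had 4036, 4156 and 4169 with compound 41, 2516, 2653 and 2793 with compound 76 and 4566, 4945 and 4829 with DMSO. It was 1.55-fold higher with compound 41 than with compound 76 (log2 0.64, SE 0.10, adjusted p = 0.00455), and against DMSO it fell by 0.85 on the log2 scale with compound 76 (adjusted p = 1.89e-05) while compound 41 gave -0.21 (adjusted p = 0.365). Of its 6 kept probe sets 3 were called, all higher with compound 41, and only 5 had a difference in that direction. The call of 210986_s_at was lost without any 1 of the 6 arrays (0.0769 to 0.268). ARHGAP29, a GTPase-activating protein, was lower with compound 41, at 559, 524 and 516, against 1189, 793 and 895 with compound 76 and 789, 909 and 913 with DMSO (1.77-fold, adjusted p = 0.0239). The ARHGAP29 call was kept only when compound 76 replicate 2 was the array left out (0.0193), with adjusted p from 0.0193 to 0.209 over the 6 omissions.

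Mitochondrial proteins made up another group of called genes. UCP2, a carrier of the uncoupling protein family in the inner membrane, had 959, 555 and 580.4 with compound 41, against 213, 205 and 231 with compound 76 and 188, 141 and 217 with DMSO. It was 3.13-fold higher with compound 41 (log2 1.65, SE 0.27, limma adjusted p = 0.0065), without overlap, and replicate 1 was the highest. ROMO1, an inner membrane protein linked to reactive oxygen species, had 1061, 940.2 and 1169 with compound 41, 488, 497 and 539 with compound 76 and 873, 702 and 826 with DMSO, so that compound 41 was 2.07-fold higher than compound 76 (adjusted p = 0.000181). For ROMO1 it was compound 76 that lay apart from DMSO, at a log2 difference of -0.65 (adjusted p = 0.00724) against 0.40 for compound 41 (adjusted p = 0.107). FUNDC2, an outer membrane protein, and NDUFB6, an accessory subunit of complex I, were 1.74-fold and 1.59-fold higher with compound 41 (adjusted p = 0.00208 and 0.0118), and in both genes DMSO lay between the compounds. FUNDC2 had 1201, 958 and 1152 with compound 41, 684, 559 and 656 with compound 76 and 906, 715 and 869 with DMSO. NDUFB6 had 1021, 1019.5 and 1170.0 with compound 41, 749, 636 and 642 with compound 76 and 914, 894 and 897 with DMSO.

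OXCT1, the enzyme that starts the use of ketone bodies in mitochondria, ran the other way. Its signals were 317, 294 and 327 with compound 41, 621, 556 and 627 with compound 76 and 470.3, 422 and 402 with DMSO, which was 1.92-fold lower with compound 41 than with compound 76 (log2 -0.94, SE 0.18, limma adjusted p = 0.0323). The respiratory chain list as a whole, with 21 measured genes, had 0 called by limma, 2 of unadjusted p below 0.05 and a median log2 difference of 0.09. UCP2 was lost without compound 41 replicate 1 (0.106), and OXCT1 without any 1 of the 6 arrays (0.0723 to 0.169). NDUFB6 was kept only without compound 41 replicate 2 (0.0341) or compound 76 replicate 1 (0.0182), with 0.0182 to 0.127 over the 6 omissions.

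USP16 and PPME1 encode regulators of protein modification and each was called on more than 1 probe set. USP16, a deubiquitinase of histone H2A, had 729, 565 and 626 with compound 41, against 270.1, 279 and 279 with compound 76 and 502, 597 and 531 with DMSO. The difference was 2.31-fold (log2 1.21, SE 0.12, limma adjusted p = 1.31e-05), and compound 76 was the group that stood apart: the 15 arrays with compound 41, 40 or 77, DMSO or Blk ran from 447 to 729. Probe set 228822_s_at of the same gene had 428, 399 and 527 with compound 41 and 187, 208 and 207 with compound 76 (adjusted p = 0.00649), and 222616_s_at had a log2 difference of 1.01 (adjusted p = 0.0843, 0.0265 with the block). The call of 228822_s_at was lost without compound 41 replicate 3 (0.0683) or compound 76 replicate 1 (0.0539) and with median scaling (0.0613). PPME1, the methylesterase that acts on the catalytic subunit of protein phosphatase 2A, had 899, 774 and 658 with compound 41, 306, 329 and 329.9 with compound 76 and 294, 318 and 359 with DMSO. Here compound 41 stood apart, 2.40-fold above compound 76 (log2 1.26, SE 0.16, adjusted p = 0.000183), and its other probe set, 217841_s_at, was 2.29-fold higher (adjusted p = 0.0239). That second call was kept only without compound 41 replicate 3 (0.0315) or compound 76 replicate 2 (0.0252), and was lost in the other 4 omissions (0.139 to 0.17) and under 4 of 9 other settings, median scaling, signals as deposited, no filter and no variance trend (0.0528 to 0.1). The 15 other arrays of treated, vehicle and Blk cells ran from 258 to 438 for PPME1.

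**Figure D2:**
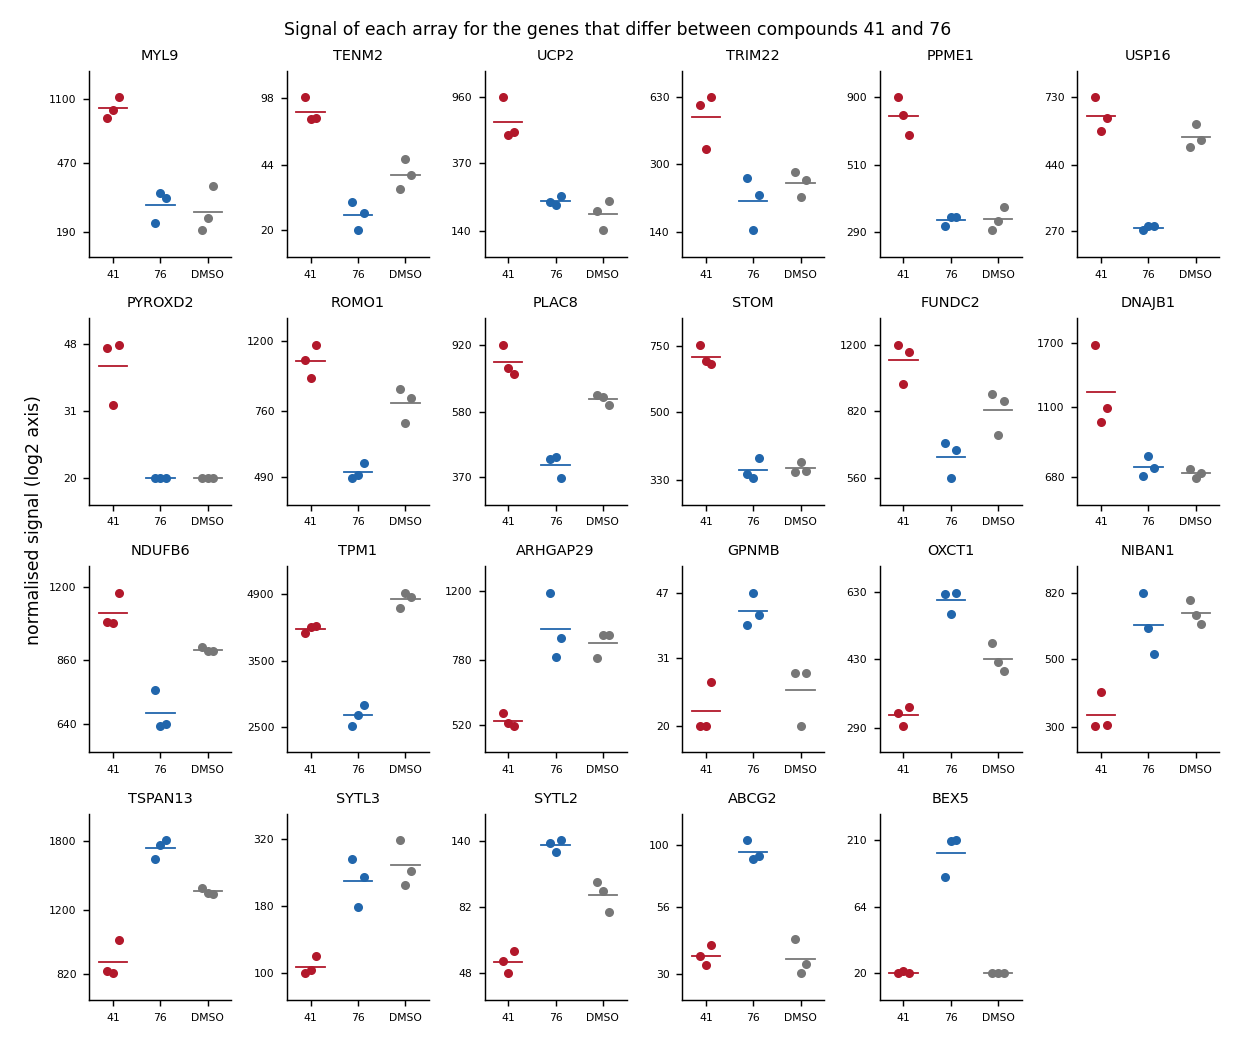
Normalised signal (log2 axis, its own scale in each panel) of the 23 genes that passed, with 1 point per array and a bar at the mean of the log2 signals of the 3 arrays with compound 41 (red), compound 76 (blue) and DMSO (grey). In each of the 23 panels the red and blue points do not overlap, and DMSO lies with compound 76, with compound 41 or between them according to the gene.

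TRIM22, PLAC8 and STOM were also higher with compound 41. TRIM22, an interferon-inducible antiviral protein, had 578, 352 and 628 with compound 41, against 257, 142 and 211 with compound 76 and 273, 208 and 251 with DMSO, a rise of 2.55-fold (log2 1.35, SE 0.27, limma adjusted p = 0.0416). PLAC8, a small cysteine-rich protein, had 919.9, 784 and 752 with compound 41, 418, 425 and 367 with compound 76 and 650.0, 644 and 607 with DMSO, so the compounds lay on either side of DMSO (2.03-fold, adjusted p = 0.00105). STOM, the membrane scaffold stomatin, had 754, 685 and 670.5 with compound 41, 342, 334 and 378 with compound 76 and 346, 368 and 350.0 with DMSO (2.00-fold, adjusted p = 0.00455). The STOM arrays of compound 76 and DMSO overlapped and those of compound 41 lay above both, while compound 77 had 477, 768 and 571. The other STOM probe set had a log2 difference of 0.93 (adjusted p = 0.252, 0.0106 with the block). STOM was lost without compound 41 replicate 1 (0.0528), and TRIM22 was kept only without compound 41 replicate 2 (0.0174) or compound 76 replicate 1 (0.0446), with 0.0174 to 0.298 over the 6 omissions.

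The largest difference among the 15124 genes was in BEX5, a member of the brain-expressed X-linked family, which compound 76 raised. It was at 20, 20.8 and 20 with compound 41, against 109, 206 and 208 with compound 76 and 20, 20 and 20 with DMSO (log2 -3.04, SE 0.26, limma adjusted p = 7.89e-07). Since 2 of the 3 arrays with compound 41 and all with DMSO were at the floor of 20, the fitted 8.24-fold difference is limited by the floor. Arrays at the floor show no spread, so the p-value depends on the floor too. With log2(signal + 1) and no floor the limma adjusted p was 0.00125. Compound 40 gave 20, 51.0 and 27.7 and compound 77 gave 20, 25.1 and 20, all below the lowest array with compound 76. SYTL2 and SYTL3, synaptotagmin-like proteins that bind RAB27 on secretory vesicles, were both lower with compound 41. SYTL2 had 52.9, 47.9 and 57.3 with compound 41, 137, 128 and 141 with compound 76 and 100.4, 93.0 and 79.0 with DMSO (2.57-fold lower, log2 -1.36, adjusted p = 0.0347), and its probe set 225496_s_at was 3.22-fold lower (adjusted p = 0.00365). SYTL3 had 100.0, 103 and 116 with compound 41, 269, 178 and 231 with compound 76 and 318, 215 and 243 with DMSO (2.10-fold lower, log2 -1.07, adjusted p = 0.0118). SYTL3 fell by 1.27 with compound 41 against DMSO on the log2 scale (adjusted p = 0.000302), and its value with compound 76 was -0.20 (adjusted p = 0.834). The representative SYTL2 probe set was lost without any 1 of the 6 arrays (0.0991 to 0.167) and 225496_s_at passed in all 6 such fits. SYTL3 was kept only without compound 41 replicate 3 (0.0328) or compound 76 replicate 2 (0.00924), with 0.00924 to 0.143 over the 6 omissions.

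TSPAN13, a tetraspanin, and NIBAN1, a stress-responsive regulator of apoptosis, were the remaining genes named by rule as lower with compound 41. TSPAN13 had 836, 824 and 1001 with compound 41, against 1619.7, 1766 and 1812 with compound 76 and 1365, 1329.6 and 1320.4 with DMSO (1.96-fold, log2 -0.97, SE 0.15, limma adjusted p = 0.00314). The DMSO arrays lay between those of the compounds, and compound 77 had 1145, 998 and 955. NIBAN1 had 304, 390.2 and 304 with compound 41, 823, 633 and 518 with compound 76 and 781, 697 and 650.3 with DMSO (1.96-fold, adjusted p = 0.00981), and was lost without replicate 1 (0.106) or 3 (0.0823) of compound 41 or replicate 1 of compound 76 (0.134). NRIP1, a corepressor of nuclear receptors, was added to fill the falls to 8, since it did not pass. It had 254, 263 and 279.7 with compound 41 and 475, 367 and 473 with compound 76 (log2 -0.71, adjusted p = 0.0823, 0.0481 with the block).

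Called genes outside the naming rule were chosen after their values were seen. TENM2, a teneurin receptor, PYROXD2, a mitochondrial oxidoreductase-like protein, ABCG2, a drug efflux transporter, and GPNMB, a transmembrane glycoprotein, passed at low signal. TENM2 had 98.3, 75.7 and 76.6 with compound 41, 28.2, 20 and 24.5 with compound 76 and 32.7, 46.9 and 38.8 with DMSO (3.46-fold, adjusted p = 0.00792). ABCG2 had 35.4, 32.5 and 39.2 with compound 41, 105, 88.2 and 90.6 with compound 76 and 41.6, 30.1 and 32.9 with DMSO (2.65-fold lower with compound 41, adjusted p = 0.0269). Compound 41 and DMSO overlapped in ABCG2 and compound 76 lay above both, with compound 40 at 57.3, 59.8 and 60.8. PYROXD2 was at 46.6, 32.2 and 47.7 with compound 41 and at the floor on all arrays with compound 76 and DMSO, at least 2.08-fold higher (adjusted p = 0.00365). GPNMB had 20, 20 and 26.6 with compound 41 and 38.2, 47.2 and 40.8 with compound 76 (adjusted p = 0.0347). With the floor raised to 50, PYROXD2 and GPNMB had no difference left to test. With log2(signal + 1) and no floor neither passed (limma adjusted p = 0.187 for PYROXD2 and 0.707 for GPNMB). The other kept probe set of PYROXD2 did not share the sign of the called one. ABCG2 was lost without any 1 of the 6 arrays (0.0747 to 0.169), GPNMB was kept only without compound 41 replicate 3 (0.0315) with 0.0315 to 0.232 over the 6 omissions, and TENM2 was lost without compound 41 replicate 1 (0.0994) or compound 76 replicate 2 (0.07).

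A further 5 genes passed through a probe set that was not their brightest. FOXRED2, an oxidoreductase of the endoplasmic reticulum, had 67.7, 60.2 and 55.3 on 233250_x_at with compound 41 and was at the floor on all arrays with compound 76 and DMSO, at least 3.04-fold higher (limma adjusted p = 1.42e-07). Its probe set 220707_s_at was 2.97-fold higher (adjusted p = 0.0148), whereas its brightest, 231846_at, had a log2 difference of -0.60 (adjusted p = 1), so the probe sets of FOXRED2 disagree. The call of 220707_s_at was lost in 4 of the 6 omissions of an array (0.106 to 0.145), all but those of compound 41 replicate 2 and compound 76 replicate 2. With log2(signal + 1) and no floor neither probe set passed (233250_x_at 0.0583, 220707_s_at 0.187). GCAT, an enzyme of threonine breakdown, was at the floor on all arrays with compound 41 and at 62.6, 60.7 and 127 with compound 76 on 205164_at, at least 3.92-fold lower with compound 41 (adjusted p = 0.00512), and was lost without compound 76 replicate 3 (0.0599). The GCAT call was also lost with a floor of 50 (0.237) and with log2(signal + 1) and no floor (0.17). LRRN4, a leucine-rich repeat protein, was 2.50-fold lower on 1553169_at (adjusted p = 0.0437) and ACSL1, an acyl-CoA synthetase, 1.56-fold lower on 207275_s_at (adjusted p = 0.0239). Both had values of the same sign on their brighter probe set, LRRN4 -0.92 (adjusted p = 0.118) and ACSL1 -0.59 (adjusted p = 0.22). ZNF473, a zinc finger protein, was 3.08-fold higher on 213130_at (adjusted p = 0.0278), against a log2 difference of 0.30 on its brighter probe set. The call was lost without any 1 of the 6 arrays for LRRN4 (0.0896 to 0.261), and was kept only without compound 41 replicate 3 for ACSL1 (0.0356) and ZNF473 (0.00825). Probe set 232118_at, which has no gene name here, was 2.04-fold lower with compound 41 (adjusted p = 0.0367), a call kept only without compound 41 replicate 3 (0.0366) or compound 76 replicate 3 (0.0489).

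Some of the 23 calls depended on how the signals were processed. Over 10 other settings, each with all 6 arrays and at least the other groups besides compound 40, 7 genes passed in every one in which they were tested: BEX5, USP16, ROMO1, PPME1, PLAC8, NIBAN1 and ABCG2. With median scaling in place of quantile normalization 8 did not pass (TSPAN13, STOM, TPM1, NDUFB6, ARHGAP29, OXCT1, SYTL2 and DNAJB1, limma adjusted p = 0.0613 to 0.237). With a gene's probe sets averaged 7 did not (MYL9, TPM1, DNAJB1, SYTL3, FUNDC2, PYROXD2 and ARHGAP29, adjusted p = 0.0503 to 0.673), and with no filter on dim signal 6 did not, UCP2 and TRIM22 among them (adjusted p = 0.0566 to 0.174). A floor of 50 ended the calls of TENM2, TRIM22, SYTL2, OXCT1, PYROXD2 and GPNMB (adjusted p = 0.0549 to 1).

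Set against DMSO, a gene could differ between the compounds through either one. Compound 41 changed 889 probe sets against DMSO (2.54%), 411 higher (1.17%) and 478 lower (1.37%), and compound 76 changed 474 (1.35%), 262 higher (0.748%) and 212 lower (0.605%), by limma adjusted p. Of all genes, 1.71% rose and 1.63% fell with compound 41, and 1.02% rose and 0.76% fell with compound 76. The block raised these to 1525 (4.36%) and 849 (2.42%). Both comparisons use the same 3 DMSO arrays, so their lists are not independent and no overlap is given. Of the 14 genes higher with compound 41 than with compound 76, 7 rose with compound 41 against DMSO and did not pass with compound 76, 4 fell with compound 76 and did not pass with compound 41, and 3 passed in neither. The 7 were MYL9, UCP2, TRIM22, PPME1, PYROXD2, STOM and DNAJB1, and the 4 were USP16, ROMO1, PLAC8 and TPM1. Of the 9 lower genes, 4 fell with compound 41 (ARHGAP29, NIBAN1, TSPAN13 and SYTL3), 3 rose with compound 76 (BEX5, ABCG2 and GPNMB) and 2 passed in neither (OXCT1 and SYTL2).

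**Figure D3:**
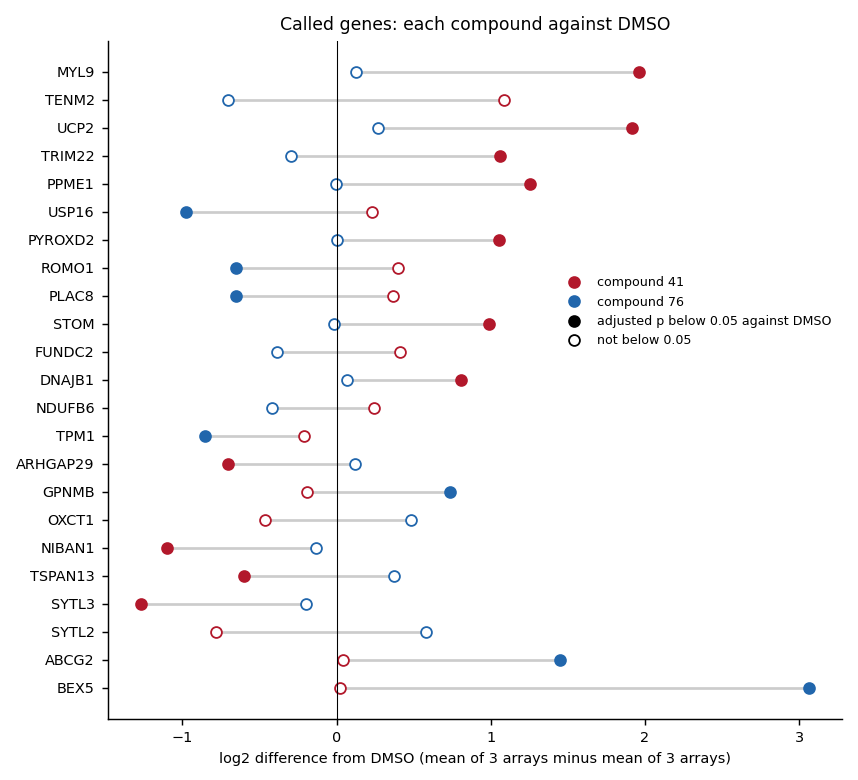
Log2 difference from DMSO of the 23 called genes with compound 41 (red) and compound 76 (blue), each from means of 3 arrays. Filled points passed an adjusted p of 0.05 against DMSO, as MYL9 did with compound 41 at 1.96 and BEX5 with compound 76 at 3.06, and the DMSO arrays are shared by both colours.

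Compounds 40 and 77, DMSO and Blk gave another view of the same question, whether compound 41 or compound 76 was the one that lay apart. In 10 of the 23 called genes all 3 arrays with compound 41 were above the other 15 arrays of compound-treated, DMSO and Blk cells, against 1.02% of all genes, and in 3 they were below them, against 0.648%. The arrays with compound 76 were above the other 15 in 5 called genes (0.496% of all genes) and below them in 4 (0.212%). FUNDC2 and PLAC8 were in both counts, above with compound 41 and below with compound 76. TPM1, STOM and NIBAN1 were in neither count. The 23 genes were chosen by the difference between compounds 41 and 76, so these shares describe them and test nothing.

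Among the 23 genes, 7 also differed between WT8 and PRC3, names used for 786-O sublines with restored VHL and with empty vector, which the labels do not state. Of all genes 5.98% passed in that comparison, which shares no array with the 6 here. Both comparisons were drawn from the same fit of all replicated arrays, so they share the estimate of spread of each probe set. The share of 7 among the 23 is therefore not independent of how the 23 were called. TENM2, PLAC8 and TPM1, higher with compound 41 than with compound 76, were lower in WT8 than in PRC3 by -1.48, -1.12 and -0.36 on the log2 scale (limma adjusted p = 0.00364, 1.79e-05 and 0.038). TRIM22 was higher in WT8, at 1.16 (0.0106). Of the genes lower with compound 41, TSPAN13 and ARHGAP29 were higher in WT8, at 0.83 (0.00114) and 0.94 (0.000469), and SYTL3 was lower, at -1.52 (1.33e-05). WT8 replicate 3 had 3 prime over 5 prime ratios of 2.37 for ACTB and 1.32 for GAPDH. Without that array the same 7 genes passed, and 5.41% of all genes.

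HIF-2a targets lay below DMSO in the median with either compound, and of 26 measured 0 passed between the compounds in limma, where 0.152% of all genes did, so that a count of 0 says little about the list. Between the compounds 1 was higher and 2 were lower with compound 41 at an unadjusted p below 0.05, and the median log2 difference was 0.11 where that of all genes was 0. Their medians against DMSO were -0.52 with compound 41 and -0.55 with compound 76. With compound 41 8 of them fell and 1 rose, and with compound 76 6 fell and 1 rose. Of all genes 1.63% fell and 1.71% rose with compound 41, and 0.76% fell and 1.02% rose with compound 76. VEGFA, the angiogenic growth factor, had 293, 263 and 269.8 with compound 41, 706, 376 and 334 with compound 76 and 1436, 1139.9 and 926 with DMSO. Every array with compound 41 or 76 was below every DMSO array, and the difference between the compounds was -0.70 (95% interval -1.31 to -0.09, adjusted p = 0.808). CA12, a carbonic anhydrase, had 902, 853 and 901 with compound 41 and 1329, 1569 and 1327 with compound 76 (-0.67, interval -1.03 to -0.30, adjusted p = 0.258), without overlap. SLC2A1, the glucose transporter GLUT1, pointed the other way, with 863, 623 and 602 for compound 41 and 535, 526 and 423 for compound 76 (0.48, interval 0.14 to 0.82, adjusted p = 0.575). CCND1, which encodes cyclin D1, had a difference of -0.37 (interval -0.77 to 0.02) and ENO2, an enolase, 0.49 (-0.12 to 1.11).

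EPAS1 mRNA itself had 542, 250.1 and 314 with compound 41, 445, 261 and 253 with compound 76 and 556, 402 and 434 with DMSO. The groups overlapped and the difference of 0.18 had an interval of -0.31 to 0.67, while the protein was not measured. VHL and ARNT, the partner of HIF-2a in DNA binding, had differences of -0.17 (-0.72 to 0.39) and -0.03 (-0.82 to 0.76), and HIF1A had no kept probe set of its own. Of 12 HIF subunits and oxygen sensors and 15 genes of iron handling, 0 passed in limma, with 1 and 0 at an unadjusted p below 0.05. Their medians were 0.09 and -0.06.

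NRF2 targets rose against DMSO with either compound, 20 of 26 with compound 41 and 19 with compound 76, where 1.71% and 1.02% of all genes rose. Between the compounds 0 of the 26 passed by limma, where 0.152% of all genes did. Their median log2 difference was -0.07, with 0 higher and 3 lower with compound 41 at an unadjusted p below 0.05. HMOX1, heme oxygenase, had 3585, 2543 and 1925 with compound 41, 1714, 3708 and 2632 with compound 76 and 109.5, 77.8 and 84.6 with DMSO, and the difference between the compounds was 0.02 (95% interval -0.54 to 0.59). For NQO1, a quinone reductase, it was -0.03 (-0.29 to 0.23), for TXNRD1, thioredoxin reductase, 0.00 (-0.30 to 0.30) and for SLC7A11, the cystine transporter, 0.06 (-0.56 to 0.67). In these genes the compounds overlapped, and the intervals of NQO1 and TXNRD1 were the narrowest of the 4. GCLM, a subunit of glutamate-cysteine ligase, had 2740.1, 2730.1 and 2637 with compound 41 and 3065, 3045 and 3027 with compound 76 (-0.17, interval -0.41 to 0.06). Its arrays did not overlap, at a difference that did not pass.

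AKR1C1 and AKR1C2, aldo-keto reductases that act on steroids and drugs, had the largest differences within this list. AKR1C2 had 577, 591 and 713 with compound 41, 1365, 1423 and 1223 with compound 76 and 45.8, 43.7 and 66.6 with DMSO, and AKR1C1 had 545, 600.3 and 855 with compound 41, 1587, 1493 and 1546 with compound 76 and 74.5, 65.0 and 59.4 with DMSO. Neither passed: the differences were -1.10 (interval -1.66 to -0.53, adjusted p = 0.188) and -1.24 (-1.95 to -0.52, adjusted p = 0.295), although the arrays did not overlap. AKR1C3 and AKR1B10 had -0.11 (-1.04 to 0.82) and -0.40 (-1.42 to 0.62) with overlap. Probe set 1555854_at, which lists more than 1 AKR1C paralog, passed at 20, 22.1 and 27.6 with compound 41 and 32.5, 48.3 and 50.6 with compound 76, with all DMSO arrays at the floor (1.87-fold lower with compound 41, limma adjusted p = 0.00872). That call was kept only without compound 41 replicate 3 (0.00634) or compound 76 replicate 1 (0.00109), and it was lost with a floor of 50 (0.953) and with no floor (1). PGD, an enzyme of the pentose phosphate pathway and the third member with an unadjusted p below 0.05, averaged 1365 ± 14.5 with compound 41 and 2096 ± 81.0 with compound 76 (SD, n = 3 each; -0.62, interval -1.04 to -0.19, limma adjusted p = 0.548). These paralogs are similar in sequence, so the signal of 1 AKR1C probe set may hold that of another.

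**Figure D4:**
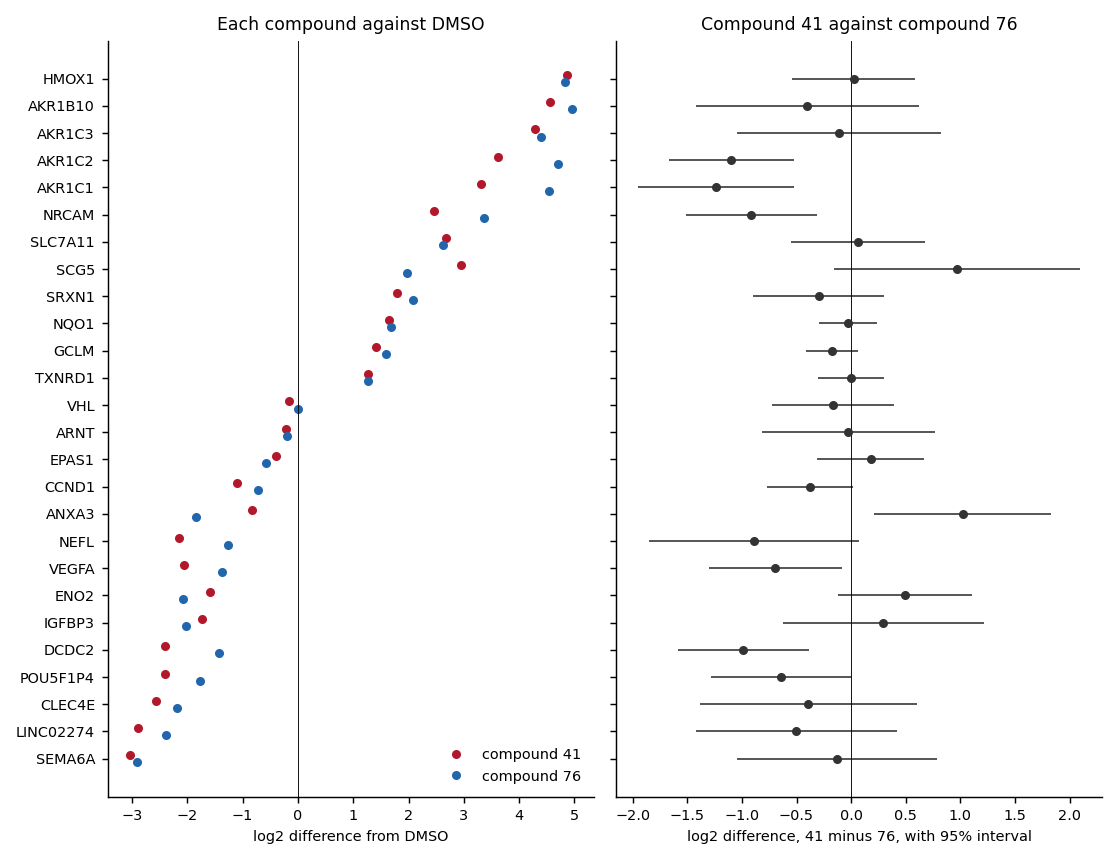
Log2 difference from DMSO (left) with compound 41 (red) and compound 76 (blue), and log2 difference of compound 41 minus compound 76 with its 95% interval (right), for the always-named genes and the 6 largest changes of each compound against DMSO. HMOX1 lies at 4.86 with compound 41 and 4.83 with compound 76, with a difference of 0.02 between them, and none of the differences on the right passed an adjusted p of 0.05.

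Other lists had many members of the same sign without a call, counted here against 6.31% of all genes with an unadjusted p below 0.05 (3.16% higher and 3.15% lower), since at 0.152% of all genes called a count of 0 is uninformative for lists of this size. All 16 measured p53 targets had a positive difference, 7 of them at an unadjusted p below 0.05, and 0 passed in limma. The median was 0.46. CDKN1A, the gene of p21 that halts the cell cycle, had 1839, 926 and 1383 with compound 41, 920.5, 481 and 575 with compound 76 and 580.4, 203 and 335 with DMSO (1.07, interval 0.29 to 1.85, adjusted p = 0.606). Replicate 1 was the highest of its group in all 3 groups. ZMAT3, a p53-induced RNA-binding protein, had 367, 159 and 241 with compound 41 and 172, 108 and 149 with compound 76 (0.78, adjusted p = 0.645), with overlap. Against DMSO 5 members of the list rose with compound 41 and 0 with compound 76, where 1.71% and 1.02% of all genes rose. These comparisons share the DMSO arrays.

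Cell cycle and replication genes leaned the other way, with 27 of 32 differences negative, 8 of them at an unadjusted p below 0.05, 0 called by limma and a median of -0.24. CCNA2, cyclin A2, had 497, 628 and 434 with compound 41, 643, 901 and 724 with compound 76 and 922, 1008 and 986 with DMSO (-0.54, adjusted p = 0.255). Against DMSO 10 of the 32 fell with compound 41 and 2 with compound 76, where 1.63% and 0.76% of all genes fell. All 15 cholesterol synthesis genes had negative differences, 4 at an unadjusted p below 0.05 and 0 called, with a median of -0.37. SQLE, squalene epoxidase, had 1223, 888 and 1161 with compound 41 and 2138, 1353 and 1568 with compound 76 (-0.62, adjusted p = 0.516). The interferon response list had a median of 0.26 with 1 of 20 at an unadjusted p below 0.05, IFI27, an interferon-induced gene, at 1.22 (adjusted p = 0.728). In the ATF4 pathway ASNS, asparagine synthetase, had 261, 241 and 226 with compound 41 and 1247, 303 and 426 with compound 76 (adjusted p = 0.402), where compound 76 replicate 1 was far above the other arrays. Outside the heat shock, HIF-2a, NRF2, p53, cell cycle, cholesterol and interferon lists, the other 17 pathway lists had medians between -0.14 and 0.14 and 0 called members each. Their shares at an unadjusted p below 0.05 ran from 0% to 20%. Glycolysis had 20% (2 higher and 2 lower) and semaphorins, plexins and neuronal-type genes 18.8% (0 higher and 3 lower). ER chaperones had 17.6% (1 higher and 2 lower) and TGF-beta and matrix response 15% (3 higher and 0 lower).

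**Figure D5:**
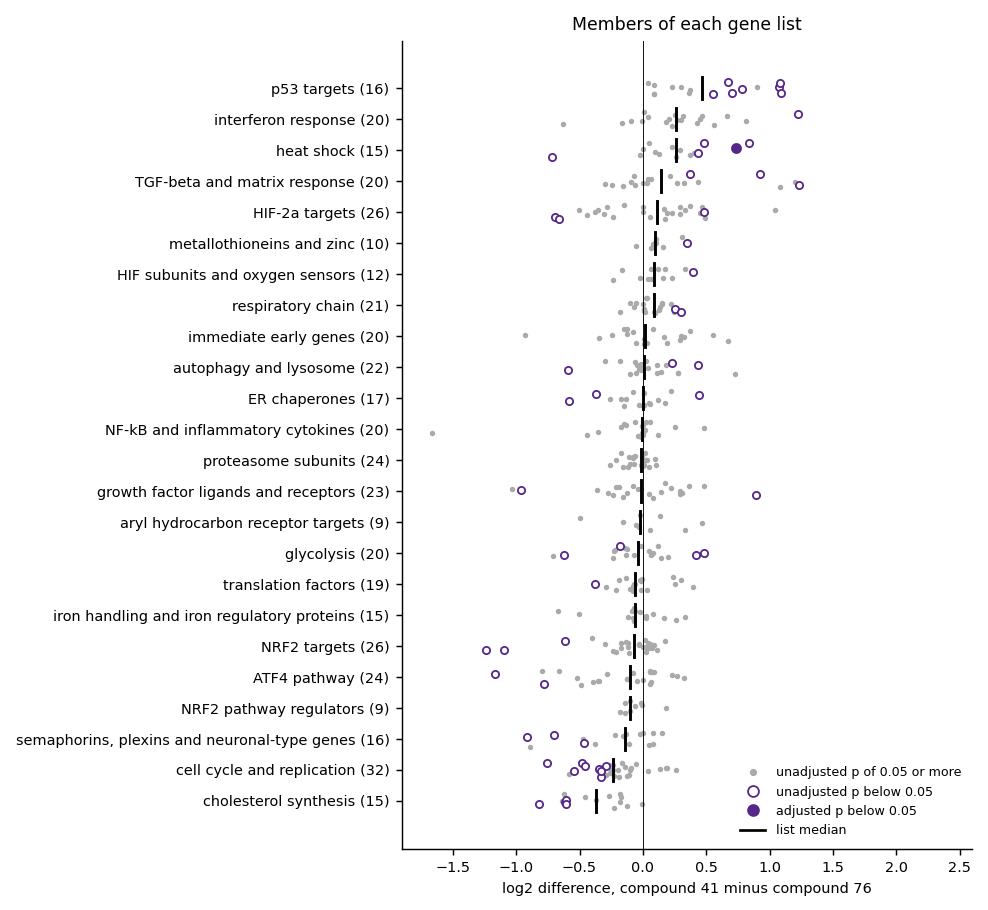
Log2 difference of compound 41 minus compound 76 for every measured member of 24 gene lists, with the number measured in brackets and a bar at the list's median. The filled point is DNAJB1 at 0.74, the 1 list member that passed, and open points had an unadjusted p below 0.05, as 7 of 16 p53 targets did.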

How the data were processed

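Total RNA of 786-O cells was hybridised as biotin-labelled cRNA to Affymetrix U133 Plus 2.0 arrays, per the labels' protocols. The authors deposited linear signal intensities per probe set, which come from MAS5 per the submitters' processing notes; neither its version nor its scaling target is stated in what was used here. The labels also describe limits of 20 and 16000 and a filter on variation, but the table holds values below 20 and every probe set, so neither the lower limit nor the filter is in it. Arrays have no read depth, and their number limits the precision.

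Quantile normalization was run over all 26 columns after 62 control probe sets were removed. Signals were limited to 20 to 16000 before the log2. A probe set was kept if its signal reached the median of its array on 3 or more of the 24 replicated arrays. The 24 arrays were fitted together with limma 3.58.1 in R 4.3.3 (lmFit, then eBayes with the trend option), which left 16 residual degrees of freedom. A probe set was called at an adjusted p below 0.05 (Benjamini-Hochberg, 35013 probe sets). Intervals are 95% intervals of that model, and the script was tested on simulated data. Of the pairs of compounds in the study, only compound 41 against compound 76 is reported here. That pair was chosen with earlier results of these data known. Differences are compound 41 minus compound 76, or a compound minus DMSO, on the log2 scale, and printed signals are normalised and floored. Where all arrays of a group sat at the floor, the fold is a lower bound.

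Gene names come from the platform annotation and the RefSeq table of GRCh38.p14, in which 41037 of 41091 single-gene probe sets were found by Entrez identifier. Probe sets listing several genes named none. The kept single-gene probe set of highest mean signal represented each gene. Named were the 15 largest rises and falls among called genes without overlap and with a brighter group no lower than the 70th percentile of mean signal (118), filled to 8 with the smallest unadjusted p. Named too were the called members of each of 28 lists or their 2 smallest p, a set of HIF and NRF2 genes, and the 6 largest changes of each compound against DMSO. The compounds, the lists and the rules were chosen with earlier results of these data known.

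The replicate numbers of the titles were checked for pairing. The deviations of same-numbered arrays from their group means correlated at 0.188, 0.145 and 0.105 between compounds 41 and 76, against -0.170 to 0.0497 for different numbers, and at 0.172 to 0.275 for each compound with DMSO. The block with the replicate number is therefore given where it changes a call or a count. No 2 of the 6 arrays had identical values, and their highest correlation was 0.975. The alternatives were median scaling, signals as deposited, a floor of 50, log2(signal + 1) without a floor, no filter, the labels' filter, 2 groups alone, no variance trend, the mean of a gene's probe sets, the block, and fits without the compound 40 arrays or without 1 array. Each promoter repeat is its own reverse complement, so the search covers both strands.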

Additional observations from a re-analysis of the deposited data

How the results depend on the processing

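No called probe set changed direction under any alternative in which its direction was tested, and the counts moved more than the directions. Of the 39, only 23 were tested with the mean of a gene's probe sets, those of FOXRED2 not among them, and 21 under the labels' filter. The 39 probe sets called between compounds 41 and 76 became 25 with median scaling (17 higher and 8 lower), 73 with a floor of 50, 20 under the labels' filter, which left 4881 probe sets to test, 0 with the 2 groups alone and 0 with the replicate block in the 6 arrays alone (3216 at an unadjusted p below 0.05; added after the data were seen), and 75 with the replicate block in 24 arrays. Of the 39, 25 were still called with median scaling, 28 with a floor of 50 and 27 with log2(signal + 1). Leaving out 1 of the 6 arrays gave 18 to 32 calls, with 18 without compound 41 replicate 1 and 24 without compound 76 replicate 1 or replicate 3, and 10 of the 23 genes passed in all 6 of these fits. Without WT8 replicate 3 there were 49. For compound 41 against DMSO, the 889 calls became 513 with median scaling (302 higher and 211 lower, against 411 and 478), 374 with the 2 groups alone and 1525 with the replicate block. Leaving out 1 array gave 419 to 685, namely 419 when compound 41 replicate 1 was omitted, 489 for its replicate 3, and 489, 509 and 554 for DMSO replicates 1, 2 and 3. For compound 76 against DMSO, the 474 calls became 126 with the 2 groups alone and 849 with the replicate block, and median scaling gave 323 (212 higher and 111 lower, against 262 and 212). Leaving out 1 array gave 226 to 381, namely 273 when compound 76 replicate 2 was omitted, 226 for its replicate 3, and 267, 277 and 267 for DMSO replicates 1, 2 and 3. The median difference of the HIF-2a targets ran from -0.03 to 0.21 and that of the NRF2 targets from -0.11 to -0.02 when 1 array was left out. Fits with fewer arrays gave lower or higher counts. Without the compound 40 arrays there were 36 calls between the compounds, and 1015 and 499 for compounds 41 and 76 against DMSO. Why the counts moved was not tested. Median deposited signals lay close to the floor of 20, and at the floor a difference can only be bounded.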
